A study of Mus musculus with 4 samples.

Results

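The genes described here are the long noncoding RNA genes that were well expressed in the livers of this series. The set was selected on raw counts: a gene was taken when the deposited count table gave it 1 of 7 noncoding types (lincRNA, lncRNA, antisense, processed_transcript, sense_intronic, sense_overlapping or bidirectional_promoter_lncRNA) and at least 30 raw counts in each library. Of 54532 genes in the table, 9677 carried such a type and 234 of these reached 30 counts in all 4 libraries. They comprised 94 lincRNA, 63 antisense, 61 processed_transcript, 11 bidirectional_promoter_lncRNA and 5 sense_intronic genes. The counts that chose them are the same counts compared below, so the levels are a description. A minimum in every library also leaves out any gene that was high in 1 group and nearly absent in the other.

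RNA from the livers of mice of the inbred strain C57BL/6 was sequenced in 2 groups of 2 libraries. The HFD group (libraries 334 and 335) received HFD, the usual abbreviation of a high-fat diet, and the I3A group (libraries 303 and 305) received HFD plus I3A, which is named in the labels only as this abbreviation. The series title names hepatic mitochondrial respiration in a fatty liver disease model as its subject. Both groups received HFD, so every difference below is that of I3A on HFD against HFD, and the labels state no dose or duration of I3A and no sex or age of the mice. The labels do not say that each library came from its own mouse, and the p-values therefore measure the spread between these libraries, which may be technical.

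Long noncoding RNAs are transcripts that are spliced and often polyadenylated like messenger RNAs but carry no long conserved reading frame. Some, such as Malat1 and Neat1, stay in the nucleus and take part in nuclear bodies. Others carry small nucleolar RNAs or microRNAs in their introns or exons, and many lie head to head with, or antisense to, a protein-coding gene.

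Small RNAs that lie inside the genes show what some of these transcripts are known to carry. Of the 234 genes, 15 held a small nucleolar RNA gene and 7 held a microRNA gene within their span. The 15 include Snhg20, whose gene of this kind is typed scaRNA and not snoRNA in the annotation. The mature microRNAs below are given from RefSeq on GRCm38.p6, 5′ to 3′, for 5 host genes with their better known arms. Capitals mark the seed, bases 2 to 8, which pairs with target messenger RNAs.

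miR-22-3p (Mir22hg, chr11:75463772-75463793, plus strand): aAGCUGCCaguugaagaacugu
miR-29b-3p (A330023F24Rik, chr1:195037091-195037113, plus strand): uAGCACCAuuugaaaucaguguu
miR-29c-3p (A330023F24Rik, chr1:195037600-195037621, plus strand): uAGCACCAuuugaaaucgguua
miR-15a-5p (Dleu2, chr14:61632075-61632096, minus strand): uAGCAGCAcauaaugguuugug
miR-16-5p (Dleu2, chr14:61631936-61631957, minus strand): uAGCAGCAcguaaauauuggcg
let-7d-5p (6720427I07Rik, chr13:48536078-48536099, minus strand): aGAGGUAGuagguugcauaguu
miR-101a-3p (E130102H24Rik, chr4:101346957-101346977, minus strand): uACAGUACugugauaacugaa

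The arms of A330023F24Rik share the seed AGCACCA, and those of Dleu2 share AGCAGCA. The counts measure the host transcripts and not the mature microRNAs.

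Host genes of small nucleolar RNAs are known for start sites with a run of pyrimidines, the terminal oligopyrimidine motif of genes of the translation machinery. A RefSeq start within 100 bases of the table's start was counted for 7 of the 11 listed host genes in the set. Epb41l4aos, which belongs to the 11, was left out of this count. In 3 of these 7, a C followed only by C or T for at least 6 bases in all began within 10 bases of the start, as in 19.2% of all 32851 RefSeq promoters. The windows below run from 20 bases before the start to 30 bases from it, on the gene's own strand of GRCm38.p6, with such a run in capitals. They are shown for 6 host genes, among them the 3 with a run, and not for every host with such a start.

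Snhg12 (chr4:132308658-132308707, plus strand): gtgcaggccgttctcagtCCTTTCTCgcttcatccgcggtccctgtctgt
2410006H16Rik (chr11:62602857-62602906, plus strand): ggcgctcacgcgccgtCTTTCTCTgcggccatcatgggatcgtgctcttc
Snhg8 (chr3:123508307-123508356, minus strand): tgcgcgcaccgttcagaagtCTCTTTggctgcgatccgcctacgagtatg
Snhg5 (chr9:88522868-88522917, minus strand): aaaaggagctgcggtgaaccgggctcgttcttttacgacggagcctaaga
Snhg1 (chr19:8723467-8723516, plus strand): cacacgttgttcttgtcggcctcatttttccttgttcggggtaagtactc
Zfas1 (chr2:167062914-167062963, plus strand): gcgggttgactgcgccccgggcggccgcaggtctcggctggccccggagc

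Snhg12, 2410006H16Rik and Snhg8 hold a run by this definition. Snhg5, Snhg1 and Zfas1 do not hold these letters in this window, which says nothing more about their starts.

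The libraries held 15005668 (HFD 334), 15942728 (HFD 335), 15649281 (I3A 303) and 18255623 (I3A 305) counts, and 13403 genes passed the filter on low counts, among them 718 long noncoding genes and all 234 described here. Levels are counts scaled to a common library size (CPM) with TMM scaling of the libraries, unless stated otherwise. Summed over marker genes and scaled by library totals, hepatocyte markers reached 76370 to 87026 CPM. HFD 335 stood apart by skeletal muscle markers (657 CPM, against 0.447 to 0.876 in the other libraries, where 4 or 5 of 6 markers were at 0), exocrine pancreas markers (128 against 10.2 to 24.9) and smooth muscle and mesothelial markers (89.4 against 3.20 to 3.93). Endothelial markers were above the I3A libraries in both HFD libraries (175 and 270 CPM against 151 and 56.9), as were erythroid markers (183 and 296 against 150 and 137) and the low B and T lymphocyte markers (3.67 and 8.47 against 2.94 and 1.59). Kupffer cell markers (106 and 89.4 CPM with HFD against 127 and 113 with I3A) and the low neutrophil markers (1.73 and 1.13 against 1.85 and 2.19) were above the HFD libraries in both I3A libraries. Their part in the differences below was not tested, and in whole liver fewer cells of a type and less RNA per cell cannot be told apart.

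The long noncoding genes together took a small and similar part of each library. Their share of all counts was 0.424% in HFD 334, 0.360% in HFD 335, 0.463% in I3A 303 and 0.349% in I3A 305. I3A 303 lay highest and I3A 305 lowest, with both HFD libraries between them. The means were 0.392% ± 0.0452 (SD, n = 2) with HFD and 0.406% ± 0.0801 (SD, n = 2) with I3A (2-sided exact permutation test p = 1, and 0.3333 is the smallest p that 2 against 2 allow). Without Malat1 and Neat1 the shares were 0.340%, 0.304%, 0.336% and 0.270% in the same order of libraries (exact permutation p = 0.667).

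A few genes held much of this share. Mean levels ran from 2.05 to 475 CPM with a median of 6.46, and 161 of the 234 genes lay under 10 CPM while 7 lay over 100. The gene with the highest mean, Malat1, held between 8.89% and 14.9998% of the counts of the 234 genes, Malat1 and Neat1 together 15.5% to 27.4%, and the leading 10 genes 38.7% to 47.7%. Exon lengths ran from 380 bases to 93092 bases (Kcnq1ot1), with a median of 2322.5, and 178 of the genes have only a Gm or Rik symbol. At the threshold, BC002059 (38, 30, 37 and 36 counts in HFD 334, HFD 335, I3A 303 and I3A 305) and Gm40923 (62, 30, 47 and 38) lay just inside, and Gm20342, Gm26608 and B130055M24Rik were the next. Gm49201 (93, 72, 45 and 28 counts) and Gm30784 (36, 29, 61 and 77) lay just outside, as did AC079680.1, 9530082P21Rik and 4932422M17Rik with a lowest count of 29.

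**Figure D1:**
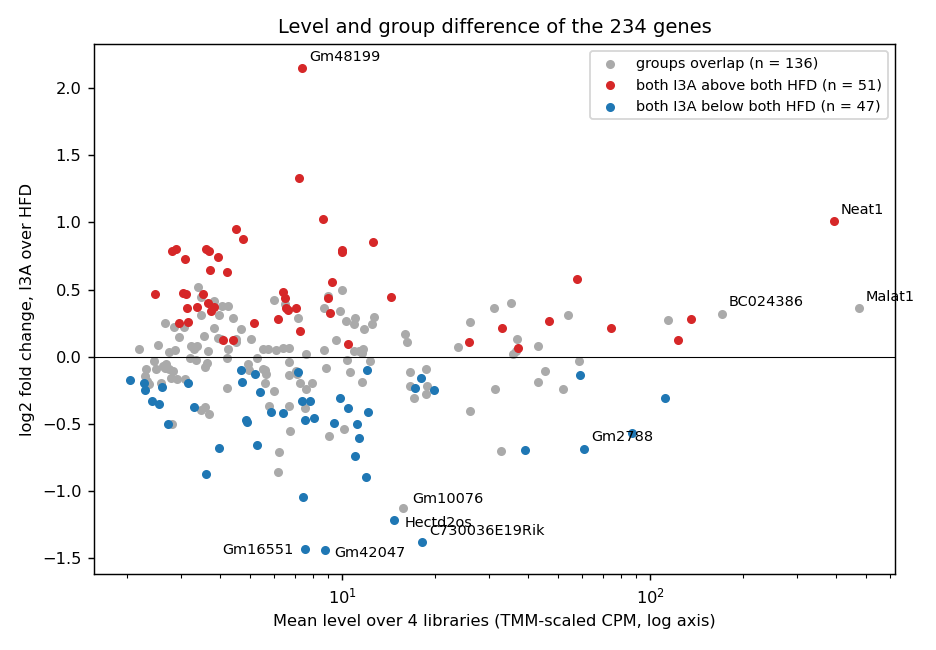
Mean level over the 4 libraries (TMM-scaled CPM, log axis) against the log2 fold change of I3A over HFD for the 234 long noncoding genes, 1 point per gene, coloured by whether the libraries of the groups overlap. Of the 234 genes, 51 had both I3A libraries above both HFD libraries, 47 had both below, and 190 had a log2 fold change between -0.5 and 0.5.

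Between I3A on HFD and HFD alone, low p-values were about as frequent in the set as over all genes, in the edgeR fit with the filter on low counts. No gene passed edgeR's quasi-likelihood test with Benjamini-Hochberg adjustment over all 13403 genes at 0.05, where 0% of all genes passed. The smallest adjusted p was 0.169 among the 234 genes and 0.141 among all genes. At an unadjusted p under 0.05 there were 13 genes with higher levels in I3A (6.66% of all genes tested) and 14 with lower levels (6.24%). These 27 genes are 11.5% of the 234, beside 12.9% of all genes tested, a share near the background.

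Sizes and directions were as evenly spread. The median log2 fold change was 0.025 (quartiles -0.22 and 0.28), with 119 genes above 0 and 115 below, beside a median of -0.010 (quartiles -0.23 and 0.18) over all genes tested. The fold changes of the long noncoding genes were known less precisely, with a median standard error of 0.277 against 0.196 over all genes. Over 2-fold differences were found for 4 genes higher in I3A (2.46% of all genes) and 6 lower (4.98%), 10 in all (7.44%). Groups did not overlap for 51 genes with both I3A libraries above both HFD libraries (23.1% of all genes) and 47 with both below (22.5%). Together these 98 genes are 41.9% of the 234 beside 45.5% of all genes tested. Scaled by library totals alone, the split was 38 above and 63 below. That scaling also moved the median of all genes to -0.10 and of the 234 to -0.062. The shares of all genes without overlap were not counted under it, so this split has no background beside it.

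Other tools called few genes. DESeq2 called 6 of the 234 at an adjusted p under 0.05, beside 2.5% of all genes: Neat1 and Gm48199 higher in I3A (1.35% of all genes), and C730036E19Rik, Gm16551, Gm2788 and Hectd2os lower (1.15%). limma-voom called 0 of the 234 and 0% of all genes. edgeR without the filter on low counts called 12, 4 of them higher and 8 lower (2.57% of the 24119 genes then tested; 0.962% higher, 1.6% lower). These 12 held all 6 of DESeq2's genes and 0610031O16Rik, Gm15611, Gm26588, Gm35696, Gm42047 and Gm43189. With 1 library left out, edgeR called Neat1 without HFD 334 (2.36% of all genes) and C730036E19Rik and Gm10076 without HFD 335 (0.152%). It called none of the 234 without I3A 303 (0.298%) or without I3A 305 (0%). In such fits the lone library of a group is taken to vary like the other group.

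Neat1, the scaffold RNA of the nuclear bodies called paraspeckles, had the lowest adjusted p among the genes with higher levels. It is a lincRNA gene at chr19:5824708-5845478 on GRCm38 with 20771 exon bases, and no coding gene overlaps it. Neat1 stood at 294 CPM in HFD 334, 229 in HFD 335, 576 in I3A 303 and 476 in I3A 305. Both I3A libraries lay well above both HFD libraries. The fold change was 2.01 (log2 1.01 ± 0.17, SE; edgeR adjusted p = 0.169, DESeq2 adjusted p = 3.51e-06), and it was between 0.84 and 1.21 on the log2 scale whichever library was left out. Frmd8, the nearest coding gene at 4224 bases, had 21.6, 21.7, 18.98 and 20.9 CPM. Both of its I3A values lay slightly below both HFD values (log2 fold change -0.12 ± 0.12).

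Malat1, an abundant RNA of nuclear speckles that lies next to Neat1 on chromosome 19, did not show this pattern. It had 522 and 309 CPM in the HFD libraries and 699 and 369 CPM in the I3A libraries. HFD 334 lay above I3A 305, so the groups overlap, and the 2 libraries of each group lay far apart. The log2 fold change was 0.36 ± 0.37 (edgeR adjusted p = 0.716), and -0.15 without I3A 303.

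The remaining nuclear and chromatin-linked genes of the list that entered the set differed less. Of 12 listed genes 9 were well expressed, 5 with a fold change above 0 and 4 below, with a median log2 fold change of 0.21 beside -0.010 over all genes. 2900097C17Rik is the mouse Norad gene by its RefSeq synonym, a cytoplasmic RNA that binds Pumilio proteins and is known for its role in genome stability. It had 118 and 130 CPM with HFD against 99.9 and 100.03 with I3A, without overlap (log2 fold change -0.31 ± 0.10, edgeR adjusted p = 0.326). 1700020I14Rik, the mouse Oip5os1 or Cyrano gene, which is known to promote decay of a microRNA, had 64.2 and 73.7 against 78.9 and 80.9 CPM (log2 fold change 0.21 ± 0.11). Firre, an X-linked RNA linked to nuclear organisation, had 33.4, 27.4, 49.0 and 31.3 CPM with overlapping groups. Tug1, an RNA linked to repressive chromatin, stood at 46.3, 47.8, 47.0 and 40.5 CPM (log2 fold change -0.10 ± 0.11).

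Gm26917, on chromosome 17, had 123 and 84.1 CPM with HFD and 80.0 and 60.1 CPM with I3A (log2 fold change -0.57 ± 0.23, edgeR adjusted p = 0.384). Both I3A libraries lay below both HFD libraries, though HFD 335 and I3A 303 were close, and without HFD 334 the log2 fold change was -0.25. The locus is known to carry ribosomal RNA precursor sequence, and the treatment of multiply mapping reads was not stated.

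Of 10 listed imprinted noncoding genes, which are expressed from 1 parental copy, 2 were in the set. Kcnq1ot1, the antisense RNA that silences neighbouring imprinted genes in cis, had 3.97 and 1.94 CPM with HFD against 4.76 and 5.11 with I3A. The I3A libraries were higher without overlap, but the distance rests much on HFD 335: the log2 fold change was 0.74 ± 0.40 (edgeR adjusted p = 0.476), and 0.31 without HFD 335. Peg13 had 5.53, 10.6, 6.05 and 4.94 CPM, with HFD 335 standing above the other 3 libraries (log2 fold change -0.55 ± 0.35, and -0.01 without HFD 335). H19, an imprinted RNA abundant in muscle and in fetal liver, was below the threshold with 1, 1123, 1 and 5 counts in HFD 334, HFD 335, I3A 303 and I3A 305. HFD 335, where H19 was high, is also the library with the skeletal muscle markers. Of 6 listed genes at the X inactivation centre, 5530601H04Rik alone was in the set (3.38, 2.91, 4.37 and 3.95 CPM).

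Host genes of small nucleolar RNAs, whose introns release the guides for ribosomal RNA modification, showed no group difference that passed the test. Over the 15 genes counted above as holding a small nucleolar RNA gene, 9 had a log2 fold change below 0 and 6 above. Their median was -0.11, and the groups did not overlap for 5 lower and 4 higher genes. Of 24 listed hosts 11 were in the set, 9 with a fold change below 0 and 2 above, and their median log2 fold change was -0.19 beside -0.010 over all genes. The list was chosen with earlier results of these data known. The I3A libraries lay below both HFD libraries for 5 of the 11 (Snhg5, Snhg20, Zfas1, Epb41l4aos and 2410006H16Rik; 22.5% of all genes tested) and above for 2 (Snhg6 and Snhg17; 23.1%). None passed edgeR's test after adjustment, and 1 in each direction had an unadjusted p under 0.05 (6.24% of all genes lower, 6.66% higher).

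Zfas1, transcribed away from the start of Znfx1 and host to 3 small nucleolar RNA genes, was the host with the lowest p among those with lower levels. It stood at 14.5 CPM in HFD 334, 12.9 in HFD 335, 8.56 in I3A 303 and 9.47 in I3A 305, with both I3A libraries below both HFD libraries. The fold was 1.52 in favour of HFD (log2 -0.60 ± 0.17, edgeR adjusted p = 0.298), and between -0.50 and -0.69 with any 1 library left out. Of its 2929 exon bases 18.5% are shared with other genes of any type, small RNA genes included, and 82 bases are shared with Znfx1. Znfx1, a coding gene on the other strand, had 60.9, 49.9, 41.4 and 44.1 CPM (log2 fold change -0.37 ± 0.13).

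The other hosts with lower levels had smaller or less steady differences. 2410006H16Rik, whose start carries the longest pyrimidine run shown above together with Snhg12, had 13.7 and 12.6 against 11.0 and 7.55 CPM (log2 fold change -0.50 ± 0.23). Snhg20 had 6.83 and 6.07 against 5.02 and 3.19 CPM (log2 fold change -0.65 ± 0.30). Snhg5 had 4.75 and 6.67 against 3.92 and 4.24 CPM (log2 fold change -0.48 ± 0.28). In each of these 3 the I3A libraries lay below both HFD libraries. Epb41l4aos had 9.05 and 9.71 against 6.88 and 6.80 CPM, with little spread within each group (log2 fold change -0.45 ± 0.19, edgeR adjusted p = 0.391). Gas5 holds 10 small nucleolar RNA entries of the annotation, with Snord80 entered more than once at nearly the same place. It had 49.7, 42.2, 45.7 and 35.0 CPM with overlapping groups (log2 fold change -0.19 ± 0.17). Snhg1, Snhg8 and Snhg12 overlapped too, at log2 fold changes of -0.19, -0.11 and -0.04, and those of Snhg8 and Snhg12 changed sign with single libraries left out.

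Snhg17 went the other way. It had 8.92 and 5.70 CPM with HFD against 13.4 and 11.9 with I3A, without overlap (log2 fold change 0.80 ± 0.26, edgeR adjusted p = 0.332). The difference was 0.51 without HFD 335 and 1.16 without HFD 334. Snhg6 was nearly level at 10.1, 10.1, 11.1 and 10.5 CPM (log2 fold change 0.09 ± 0.16).

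**Figure D2:**
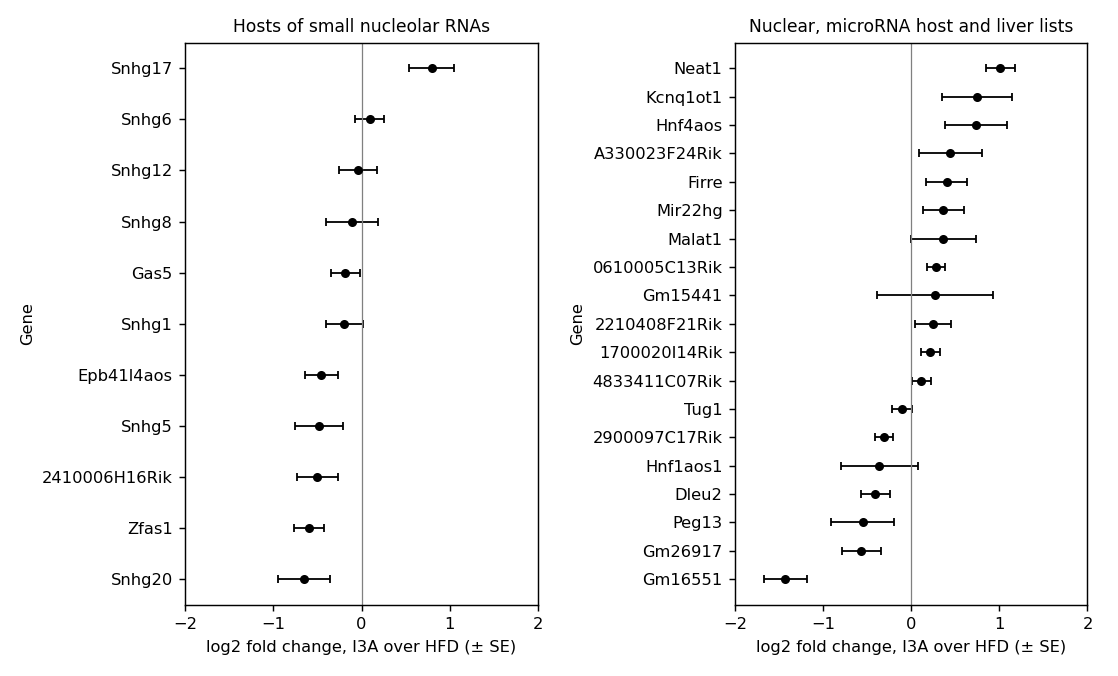
Log2 fold change of I3A over HFD (points) with its standard error (bars) for the well expressed genes of the listed groups: hosts of small nucleolar RNAs on the left, and nuclear, microRNA host and liver genes on the right. On the left 9 of 11 points lie below 0 and Snhg17 lies highest, and on the right Neat1 (1.01) and Gm16551 (-1.43) mark the ends.

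No listed host gene of microRNAs passed edgeR's test after adjustment. Of 18 listed genes 4 were in the set, and 3 of these hold a mature microRNA in the RefSeq table. The fourth, 2210408F21Rik, holds no microRNA gene within its span in the annotation. Mir22hg, the host of miR-22, had 31.8, 22.6, 41.1 and 28.9 CPM, and HFD 334 lay above I3A 305 (log2 fold change 0.36 ± 0.24). Dleu2, which carries miR-15a and miR-16, had 13.6 and 14.0 CPM with HFD against 11.1 and 9.64 with I3A. Both I3A libraries were lower (log2 fold change -0.41 ± 0.16, unadjusted p = 0.0483, edgeR adjusted p = 0.383). A330023F24Rik, host of the miR-29 pair, stood at 2.86, 3.03, 5.08 and 2.96 CPM, where I3A 303 alone was high. Outside the list, E130102H24Rik with miR-101a had 8.26, 4.67, 9.33 and 6.45 CPM, and 6720427I07Rik with let-7d had 3.58, 1.94, 2.96 and 1.86, both with overlapping groups.

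Among genes described in liver or near liver transcription factors, 6 of 12 listed were in the set, 4 with a fold change above 0 and 2 below. Gm16551, reported in mouse liver as a restraint on lipogenic genes downstream of Srebf1, had the largest difference of the list. The gene lies at chr9:74847983-74860134 on the plus strand as a processed_transcript with 3708 exon bases. It stood at 11.7 CPM in HFD 334, 10.4 in HFD 335, 3.41 in I3A 303 and 4.76 in I3A 305. Both I3A libraries had less than the lower HFD library by a wide margin. The level was 2.69-fold higher with HFD (log2 fold change -1.43 ± 0.25, edgeR adjusted p = 0.184, DESeq2 adjusted p = 0.00317), and the log2 fold change stayed between -1.19 and -1.70 with any 1 library left out.

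The RefSeq promoter of Gm16551 is shown because this gene had the difference with the smallest p among the liver genes. It runs from 250 bases before to 50 bases after a RefSeq start that lies 454 bases inside the table's gene. Capitals mark a GC box (GGGCGG), the only match on either strand among the motifs searched, which were a TATA box (TATAAA, found in 13.6% of RefSeq promoters of the same length), a CCAAT box (in 37.4%), the GC box (in 35.7%) and a cyclic AMP response element (TGACGTCA, in 1.79%).

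Gm16551 (chr9:74848187-74848486, plus strand): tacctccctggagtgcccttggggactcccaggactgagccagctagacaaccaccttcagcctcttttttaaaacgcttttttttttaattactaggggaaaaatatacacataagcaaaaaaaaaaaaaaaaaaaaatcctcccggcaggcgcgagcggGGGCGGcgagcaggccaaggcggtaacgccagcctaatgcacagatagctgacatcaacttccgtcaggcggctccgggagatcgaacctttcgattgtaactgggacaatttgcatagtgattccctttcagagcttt

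Onecut1, a liver transcription factor gene 1787 bases from Gm16551, had 19.8 CPM in HFD 334, 54.3 in HFD 335, 6.88 in I3A 303 and 21.7 in I3A 305. I3A 305 lay above HFD 334, so these groups overlap, whereas those of Gm16551 do not. The log2 fold change of Onecut1 was -1.37 ± 0.65 (edgeR adjusted p = 0.443).

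Of the other liver genes, Gm15441 lies antisense to Txnip, an inhibitor of thioredoxin that is regulated by glucose and fasting. Gm15441 had 8.66, 9.89, 18.5 and 3.89 CPM, and Txnip 178, 204, 224 and 74.9 CPM, in HFD 334, HFD 335, I3A 303 and I3A 305. Both genes were highest in I3A 303 and lowest in I3A 305, the libraries of 1 group. The log2 fold change of Gm15441 was 0.27 ± 0.66, and -1.23 without I3A 303. Of its exon bases 36.2% are shared with other genes on either strand, and since the counting is not stated to use strand, reads from overlapping genes cannot be told apart.

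Hnf4aos overlaps the body of Hnf4a on the other strand without shared exon bases. It had 2.02 and 2.61 CPM with HFD and 4.57 and 3.14 with I3A (log2 fold change 0.73 ± 0.35, edgeR adjusted p = 0.446). Hnf4a itself, a master regulator of hepatocyte genes, had 906, 849, 859 and 1034 CPM (log2 fold change 0.11 ± 0.13). Both I3A values of Hnf4aos lay above both HFD values, and those of Hnf4a did not separate. Hnf1aos1 had 7.61, 5.34, 7.01 and 3.08 CPM, with I3A 305 lowest and a log2 fold change that was 0.11 without that library and -0.36 with it. 0610005C13Rik, antisense to Bcat2, which starts branched-chain amino acid breakdown, had 126 and 118 against 141 and 157 CPM (log2 fold change 0.28 ± 0.10, unadjusted p = 0.0353, edgeR adjusted p = 0.353). 4833411C07Rik was nearly level, at 25.1 and 24.5 against 26.2 and 27.4 CPM.

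**Figure D3:**
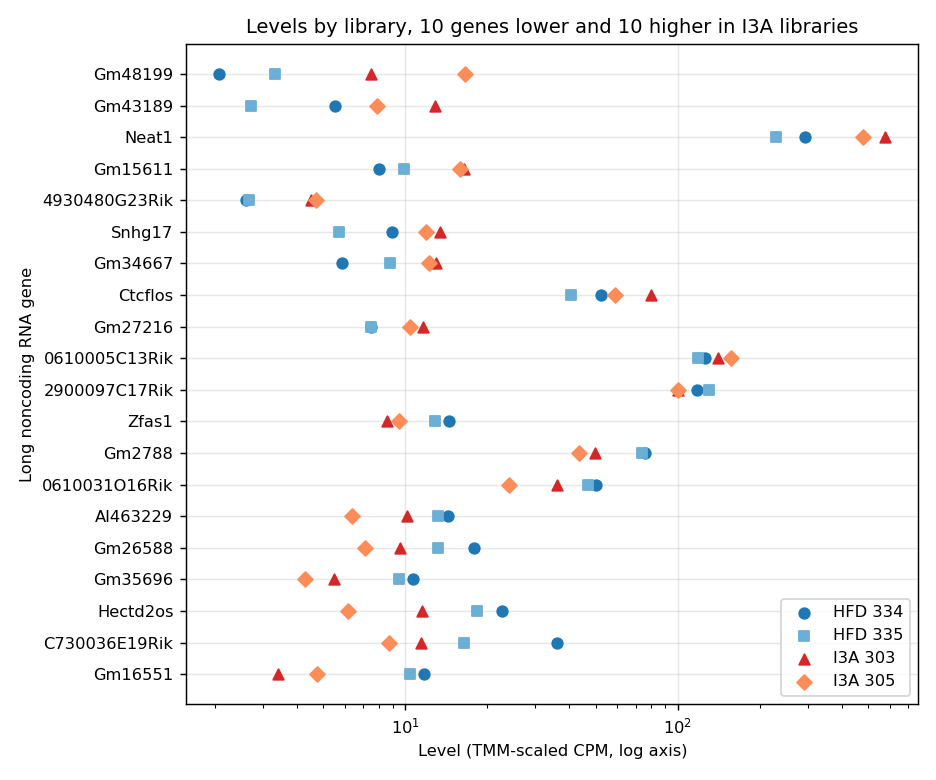
TMM-scaled CPM (log axis) of each library for the 10 long noncoding genes with the smallest unadjusted p in each direction among those whose groups do not overlap, ordered by fold change. Circles and squares are the HFD libraries and triangles and diamonds the I3A libraries. Neat1 is the most abundant gene shown, and the I3A libraries of Gm48199 (7.46 and 16.6 CPM) lie furthest from its HFD libraries (2.08 and 3.34 CPM).

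The genes with the smallest p in each direction were mostly uncharacterised. Gm2788, on chromosome 7, stood at 75.7 CPM in HFD 334, 74.0 in HFD 335, 49.9 in I3A 303 and 43.5 in I3A 305. The values within each group were close and the I3A libraries lower (log2 fold change -0.68 ± 0.11, edgeR adjusted p = 0.169, DESeq2 adjusted p = 0.00263). The log2 fold change was between -0.59 and -0.77 with any 1 library left out, the narrowest range of the 4 genes that DESeq2 called lower. E2f8, a cell cycle repressor known for its part in hepatocyte polyploidy, overlaps Gm2788 on the other strand. E2f8 had 22.8, 38.0, 15.5 and 10.7 CPM, again lower in both I3A libraries (log2 fold change -1.21 ± 0.30, edgeR adjusted p = 0.252). Of the exon bases of Gm2788, 13.5% are shared with other genes.

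Gm48199, a lincRNA gene with 496 exon bases on chromosome 13, had the largest fold change of the set. It had 2.08, 3.34, 7.46 and 16.6 CPM, or 32, 55, 116 and 286 counts, in HFD 334, HFD 335, I3A 303 and I3A 305. Both I3A libraries were above both HFD libraries, but they differed from each other by over 2-fold. The fold was 4.43 (log2 2.15 ± 0.46, edgeR adjusted p = 0.234, DESeq2 adjusted p = 0.00122), and 1.45 on the log2 scale without I3A 305. No coding gene overlaps it.

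Further genes lower with I3A showed smaller levels. Gm35696 had 10.7 and 9.46 against 5.47 and 4.30 CPM (log2 fold change -1.04 ± 0.22, edgeR adjusted p = 0.231). Its groups were compact and separate, and the log2 fold change was -0.88 or lower with any 1 library left out. C730036E19Rik had 36.0 CPM in HFD 334, 16.4 in HFD 335, 11.5 in I3A 303 and 8.71 in I3A 305. HFD 334 stood far above the rest: the log2 fold change was -1.38 ± 0.39 with it and -0.69 without it. Hectd2os had 22.6 and 18.32 against 11.5 and 6.16 CPM (log2 fold change -1.22 ± 0.31, edgeR adjusted p = 0.269, DESeq2 adjusted p = 0.0204). It overlaps Hectd2, a ubiquitin ligase gene, and shares 46.1% of its exon bases with other genes, while Hectd2 had 1.497, 2.24, 2.64 and 1.86 CPM (log2 fold change 0.26 ± 0.41).

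Among genes higher with I3A, Gm15611 had 8.004 and 9.89 CPM with HFD against 16.5 and 15.9 with I3A (log2 fold change 0.85 ± 0.17, edgeR adjusted p = 0.214). The I3A libraries were close to each other and clearly above the HFD libraries. Crot, the peroxisomal carnitine octanoyltransferase gene 1078 bases away, had 1016, 1175, 1547 and 1415 CPM, also higher in both I3A libraries (log2 fold change 0.44 ± 0.13, edgeR adjusted p = 0.311). Gm43189, a sense_intronic gene, had 5.53 and 2.73 against 12.9 and 7.90 CPM (log2 fold change 1.33 ± 0.42). Both I3A libraries lay above both HFD libraries. Gm34667, Gm27216, 4930480G23Rik and Ctcflos had log2 fold changes from 0.55 to 0.80, and each had both I3A libraries above both HFD libraries.

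Of the genes over 2-fold apart, 2 lay outside the rule for named genes and were chosen after their values were seen. Gm42047 had 16.1, 9.65, 7.27 and 2.27 CPM (log2 fold change -1.44 ± 0.56), and Gm45470, antisense to Adrb3, had 6.05, 5.34, 15.8 and 7.49 CPM (log2 fold change 1.03 ± 0.38). Their edgeR adjusted p were 0.373 and 0.359, and the groups of each did not overlap.

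**Figure D4:**
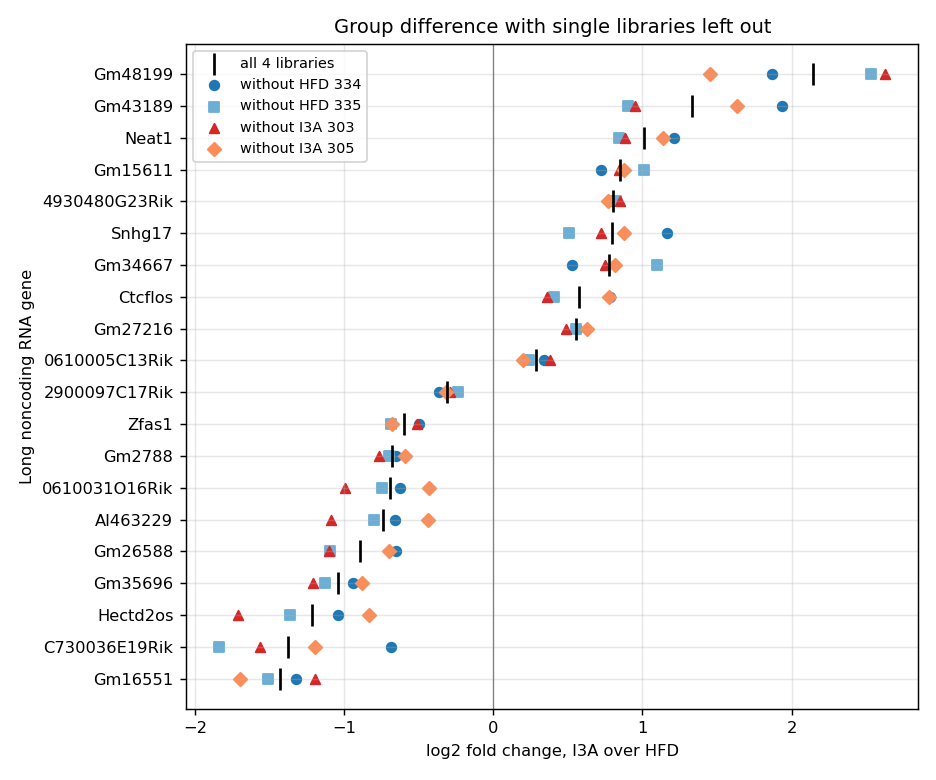
Log2 fold change of I3A over HFD for the same 20 genes with all 4 libraries (black bars) and with each library left out in turn (symbols). All symbols of a gene lie on the same side of 0. The widest spread is that of Gm48199 (1.45 to 2.63), followed by C730036E19Rik (-1.84 to -0.69).

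Some abundant genes varied more between libraries of 1 group than between groups. Per kilobase of exon, BC024386 had the highest level of the set at 101 CPM per kb, ahead of Malat1 at 68.0, AW112010 at 48.4 and Gm10076 at 40.9 CPM per kb. BC024386 had 175, 127, 240 and 138 CPM, with I3A 303 high and the groups overlapping (log2 fold change 0.32 ± 0.29, and -0.12 without I3A 303). Gm10076 is a short gene typed as lincRNA in the count table but as a pseudogene in RefSeq. It had 39.5 CPM in HFD 334 against 3.64 in HFD 335, and 8.30 and 11.4 CPM in the I3A libraries. HFD 334 and HFD 335 bracket the I3A group, and the log2 fold change was -1.13 ± 0.96 with all libraries, 1.45 without HFD 334 and -2.001 without HFD 335. AW112010, an interferon-inducible RNA known from immune cells, was nearly constant at 36.3, 36.6, 39.4 and 36.9 CPM. Cct6a (121, 114, 126 and 130 CPM) is typed as noncoding in the table but as protein-coding in RefSeq. In all, 9 of the 174 genes matched to RefSeq by symbol were typed as protein-coding there and 4 as pseudogenes.

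Many of the genes sit on or beside coding genes. Of the 234, 107 overlapped the body of a coding gene and 127 did not. Exons were shared with a coding gene on the opposite strand for 75 and on the same strand for 6. Another 18 overlapped a coding gene on the opposite strand without shared exon bases, and 8 did so on the same strand. A further 38 lay within 1000 bases of a tested coding gene without overlapping one. The median log2 fold change was 0.018 for genes that overlap a coding gene and 0.039 for those that do not. It was -0.35 for the 8 that overlap a coding gene on the same strand without shared exon bases, and 6 of these were below 0.

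Each long noncoding gene was set beside 1 coding partner, the tested coding gene it overlaps or else the nearest. For the 68 pairs that share exons on opposite strands, the log2 fold changes had a Pearson r of 0.37 and a Spearman rho of 0.31 across pairs, and 38 of the pairs had the same sign. Over all 96 overlapping pairs r was 0.21, over 70 nearest pairs within 10000 bases 0.24, and over 68 pairs farther apart 0.20. The same sign was found for 51 of the 96, 36 of the 70 and 40 of the 68 distant pairs, so the share of pairs with the same sign was highest for the distant pairs (58.8%, beside 55.9% for those that share exons). These are descriptions across pairs that share the same 4 libraries and, where exons overlap, may share reads. The median ratio of the coding partner's level to that of the long noncoding gene was 4.80 for the exon-sharing pairs. For neighbours within 10000 bases it was 5.53. In some pairs the long noncoding gene was the more abundant, as for Gm2788 with E2f8 and Neat1 with Frmd8, given above.

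Single pairs showed both patterns. 0610031O16Rik, antisense to the retinol and alcohol dehydrogenase gene Adh7, had 50.3 and 46.7 CPM with HFD and 36.0 and 23.99 with I3A (log2 fold change -0.69 ± 0.20). Adh7 had 33.6 and 30.3 against 25.9 and 16.03 CPM (log2 fold change -0.61 ± 0.24), so both genes of this pair were lower in both I3A libraries. Gm26588 had 17.8 and 13.2 against 9.59 and 7.15 CPM (log2 fold change -0.89 ± 0.24), and its antisense partner Mgll, the monoacylglycerol lipase gene, had 397, 361, 313 and 280 CPM (log2 fold change -0.35 ± 0.11). In this pair too both genes were lower with I3A, the noncoding one by more. Ctcflos had 52.3 and 40.6 against 79.8 and 58.8 CPM (log2 fold change 0.58 ± 0.19) beside 0.48 ± 0.28 for Ctcfl. In contrast, the pairs of Neat1 with Frmd8 and Hectd2os with Hectd2, given above, had partners with fold changes near 0 or of the other sign. None of these coding genes passed edgeR's test after adjustment.

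**Figure D5:**
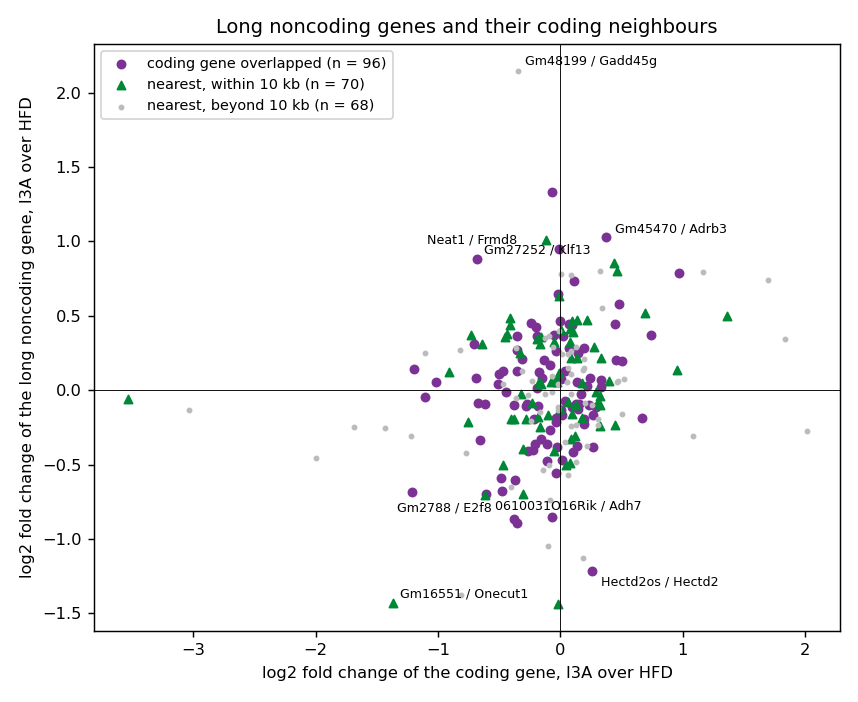
Log2 fold change of the coding partner (horizontal) against that of the long noncoding gene (vertical), I3A over HFD, 1 point per pair, for partners that overlap (96 pairs), lie within 10 kb (70 pairs) or lie farther away (68 pairs). Gm16551 with Onecut1 and Gm2788 with E2f8 lie at the lower left, and Neat1 lies high with a partner near 0.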

How the data were processed

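The deposited table holds raw counts of reads per gene for 4 liver libraries, with gene type, position and exon length. Alignment used HISAT2, counting used featureCounts 1.5.0-p3 and the genome build was GRCm38, per the submitters' processing notes. Whether counting used strand was not stated in the labels' protocols, nor was the annotation release.

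The 234 genes, the 6 gene lists, the tests and the alternatives were chosen with earlier results of these data known. Named genes are those of the lists, the 10 with the smallest unadjusted p in each direction among genes whose groups do not overlap, the 8 highest by CPM and the 8 highest by CPM per kb, the 5 nearest each side of the count threshold, and genes of the set where 1 library stood over 4 times apart (none of the 234 did). Coding genes are named as their overlapping or nearest partners. Outside this rule stand E130102H24Rik and 6720427I07Rik, given for their microRNAs, and Gm42047 and Gm45470. In the list of microRNA hosts, 2210408F21Rik was included although it holds no microRNA gene.

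The whole table entered the fit in edgeR 4.0.16 (R 4.3.3): filterByExpr with a minimum of 10 counts, TMM scaling, a quasi-likelihood fit on group, 2-sided tests, and Benjamini-Hochberg adjustment over 13403 genes at 0.05. The biological coefficient of variation was 19.9%. SE is the log2 fold change divided by the square root of its F statistic. All log2 fold changes are I3A over HFD. The replicate numbers differ between the groups and pair nothing. Alternatives were RLE and library total scaling, testing without a filter, a minimum of 10 counts per library, DESeq2 1.42.0, limma-voom (limma 3.58.1), each library left out, and other ways to choose the set. The edgeR, DESeq2 and limma-voom fits were run on simulated counts with known changes, and no statement here rests on that run.

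Exons were read from GENCODE on GRCm38, which holds all 234 genes, 229 of them with the same span as in the deposited table. Overlapping and neighbouring genes were found by the gene positions in the deposited table. Of the 234 genes, 174 matched a RefSeq gene by symbol and 143 a RefSeq promoter of 300 bases.

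1 coding partner gene is not reported here.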

Additional observations from a re-analysis of the deposited data

How the results depend on the processing

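edgeR called 0 of the 234 genes with RLE scaling, with library totals and with at least 10 counts in every library, 12 with no filter on low counts (2.57% of all genes then tested), and from 0 to 2 with 1 library left out. DESeq2 called 6 (2.5% of all genes) and limma-voom 0. The cause was not tested. Groups did not overlap for 38 of 86 genes with at least 100 counts in every library (44.2%), 199 of 489 with at least 10 (40.7%) and 32 of 81 that overlap no other gene (39.5%), beside 41.9% of the 234 and 45.5% of all genes tested, so the counts moved with the size of the set. The median log2 fold change ran from -0.12 to 0.11 with 1 library left out, so its sign differed between these fits.

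Signs turned for few named genes. With library totals AW112010 stood at -0.026 and BC002059 at -0.028, and with limma-voom Gm15441 stood at -0.18. With 1 library left out, the log2 fold change ran from -0.15 to 0.80 for Malat1, -0.12 to 0.67 for BC024386, -0.49 to 0.076 for Gm48633, -2.001 to 1.45 for Gm10076, -0.42 to 0.29 for Snhg8, -1.23 to 0.99 for Gm15441, -0.15 to 0.080 for Snhg12, -1.05 to 0.11 for Hnf1aos1, -0.63 to 0.53 for Gm40923 and -0.15 to 0.31 for BC002059. These 11 of the 57 named genes are all that changed sign under any setting tried. No paired analysis was possible because the groups share no replicate numbers.

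The median standard error of these genes was 0.277 on the log2 scale, and a gene that did not pass is not shown to be equal in the groups.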
